A study of Mus musculus with 12 samples.

Results

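Solute carriers form a large superfamily of membrane proteins that move amino acids, sugars, nucleotides, organic ions, metals and vitamins across the plasma membrane and the membranes of organelles. In hepatocytes they take up bile salts, glucose and drugs from blood, feed the Golgi with nucleotide sugars, and exchange metabolites across the inner mitochondrial membrane. Some work only with a partner protein, and many of those at the cell surface are held in place by scaffold proteins. The genes described here are the solute carrier genes with a clear signal in these livers. A probe set was taken where its symbol was Slc followed by a digit and its log2(intensity + 1), the scale of all levels below, was at least 6 on at least 3 of the 12 arrays. The array carried 325 such symbols among 16475 probe sets without array controls, 95 passed the level, and 8 of these, of the 10 transporters set aside by name by the rule, were left out. That gave 87 genes. The rule used the levels themselves, so that these genes were detected is not a result.

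The arrays measured total RNA of whole mouse liver, 1 array per animal and 3 animals per group. Livers with a hepatocyte knockout of Met, the receptor of hepatocyte growth factor (HGF), came from mice with loxP-flanked Met alleles crossed with a Cre transgene and are named c-MetDhepa in the labels, and controls carried the loxP-flanked alleles (c-MetloxP/loxP). Cre was driven by the albumin promoter or by albumin and alpha-fetoprotein regulatory sequence (Alb-Cre or Alfp-Cre), and the labels do not say which of them each knockout animal carried. The 4 groups were knockout livers with HGF, knockout livers without HGF, control livers with HGF and control livers without HGF. Stimulated mice received 2 µg of recombinant mouse HGF into the peritoneum 2 h before sampling. The protocol speaks of HGF or NaCl injections and of animals before and after injection, so whether the animals without HGF had been injected is not known here. An HGF difference below is therefore the difference between groups named with and without HGF. The series concerns Met in chronic liver damage after bile duct ligation, but none of these arrays is described as coming from a ligated animal. Per-array values are given for replicates 1, 2 and 3 in that order.

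The arrays were of like range, with 37.9% to 38.4% of probe sets at or above the test filter of 4. The 7 hepatocyte markers on the array all passed that filter, with a summed linear intensity of 83512 to 84147 in knockout livers with HGF, 82400 to 85165 in knockout livers, 81320 to 86366 in control livers with HGF and 84071 to 87730 in control livers. The 6 kidney tubule markers, 5 cholangiocyte markers and 4 lymphocyte markers on the array were all below the filter. Met was not lower in knockout livers, by 0.10 on the log2 scale (SE 0.18, limma adjusted p = 0.872 for the averaged knockout difference), and which part of the transcript its probes cover is not known here. As labelled, knockout replicate 2 read nearer the opposite HGF condition in both knockout groups. Tnfaip3, an NF-kappaB target, read 3.74, 2.44 and 9.59 in knockout livers with HGF and 3.41, 10.22 and 2.45 in knockout livers, against 9.67 to 10.82 in control livers with HGF and 2.14 to 2.38 in control livers. The metallothionein gene Mt1 read 11.86, 8.24 and 12.91 in knockout livers with HGF and 9.69, 12.71 and 8.46 in knockout livers, against 12.71 to 12.97 in control livers with HGF and 5.03 to 7.06 in control livers. Of the 9 genes listed as a check of the HGF response 8 were tested. Mt1, Junb and Atf3 passed for HGF in control livers, at a limma adjusted p of 0.04996, 0.0338 and 0.0418 over all 12 arrays. Knockout replicate 1 with HGF was mixed, with Tnfaip3 nearer controls without HGF and Mt1 nearer HGF-treated controls. Of 2522 probe sets whose control groups did not overlap, 30.0% were nearer HGF-treated controls on that array. On knockout replicates 2 and 3 with HGF the shares were 23.4% and 72.7%, and on replicates 1, 2 and 3 without HGF 26.9%, 79.5% and 25.6%. By this share replicate 1 with HGF, like replicate 2, lay on the side of controls without HGF, and replicate 3 with HGF lay apart from both. The labels of both knockout replicate 2 arrays may be exchanged. Whether they are, or whether another knockout array is out of place, was not tested, and the labels were kept. What the arrays labelled with and without HGF show in knockout livers, and the knockout difference within each HGF condition, rest on those labels, while an exchange would leave the mean of the 6 knockout arrays as it is. Each comparison with knockout arrays is therefore also given without both replicate 2 arrays, a choice made after the values were seen. Leaving out arrays because they read against their label by itself favours calls, so the calls and adjusted p of that fit are descriptions. Controls were arrays 1 to 6 and knockouts arrays 7 to 12, so genotype and array order cannot be told apart.

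Of the 87 genes, 67 were at or above the level on all 12 arrays and 20 on fewer. No gene was at the level in 1 group only. The rule would not have taken 2 genes without the arrays of a single group. Slc25a30 was at the level on 3 control arrays without HGF and 1 other array, and Slc45a3 on 2 control arrays with HGF and 2 other arrays. The choice of genes favoured a high level of each in that group, so their differences against it are given as descriptions. The genes just inside the rule were Slc25a30, Slc35a3 and Slc17a1, which on the array ranked 3 from the top read 6.16, 6.31 and 6.33. Just outside were Slc39a8, Slc20a2 and Slc30a7, at 5.97, 5.87 and 5.77 on that array. All 87 passed the filter for testing, a log2 level of at least 4 on at least 3 arrays, and were tested among 6683 probe sets.

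The largest substrate class was the mitochondrial carriers of the Slc25 family, with 24 genes. The rule for named genes took Slc25a5, the ADP/ATP carrier ANT2, at 11.93 to 12.34 over the 12 arrays, Slc25a39, needed for mitochondrial glutathione, at 11.01 to 11.30, and Slc25a47, a carrier found mainly in liver, at 10.63 to 11.83. Transition metals and heme had 12 genes, among them the copper importer Slc31a1 at 9.22 to 9.43, the zinc importer Slc39a4 at 7.43 to 8.75 and the zinc transporter Slc39a7 of the secretory pathway at 8.14 to 8.57. Amino acids and peptides had 11 genes, among them the glutamine transporter Slc38a3 at 11.57 to 12.54, the neutral amino acid transporter Slc38a4 at 11.48 to 12.24 and the GABA and taurine transporter Slc6a13 at 9.72 to 10.07. Nucleotide sugars and other substrates of the secretory pathway also had 11, with Slc37a4, the glucose 6-phosphate transporter of the endoplasmic reticulum, at 9.31 to 10.09. Levels of different probe sets are not set against each other, since a probe set's brightness depends on its probes.

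Organic ions, bile salts and drugs had 9 genes, among them the phosphate and organic anion transporter genes Slc17a2 at 9.52 to 10.62 and Slc17a3 at 8.68 to 9.48, and Slc47a1, which exports organic cations, at 9.55 to 10.03. Inorganic ions had 6 genes, with the magnesium transporter Slc41a2, the sulfate transporter Slc26a1 and the potassium chloride cotransporter Slc12a7 among them. Vitamins, choline and cofactors had 4, including the thiamine transporter Slc19a2, the ascorbate transporter Slc23a1 and the lysosomal carrier Slc46a3. Sugars and polyols had 2, the glucose transporter Slc2a2 (GLUT2) and Slc45a3. Nucleosides and nucleobases had 2, the equilibrative nucleoside transporter Slc29a1 and the purine nucleobase transporter Slc43a3, and mono- and dicarboxylates had 2, Slc16a7 and Slc13a3. The last 4 fell in no class, namely the lysosomal genes Slc49a4 and Slc66a1, Slc66a2, and Slc9a3r1, which encodes the scaffold NHERF1 and is no transporter.

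The heavy chains that carry amino acid transporters to the membrane were both present, Slc3a1 at 4.24 to 7.14 and Slc3a2 at 7.05 to 7.58. Not every light chain they are known to pair with was read, and those that were gave little signal. Slc7a9, the partner of Slc3a1 in kidney, read 1.75 to 2.12. Slc7a5, Slc7a6, Slc7a7, Slc7a8 and Slc7a10 had mean levels of 2.25, 2.06, 2.88, 2.27 and 1.84. The subunits of the bile salt exporter at the basolateral membrane, Slc51a and Slc51b, had means of 1.95 and 2.60. These probe sets were all below the test filter. Each gene has 1 probe set here, and a dim probe set does not show that the transcript is absent.

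**Figure D1:**
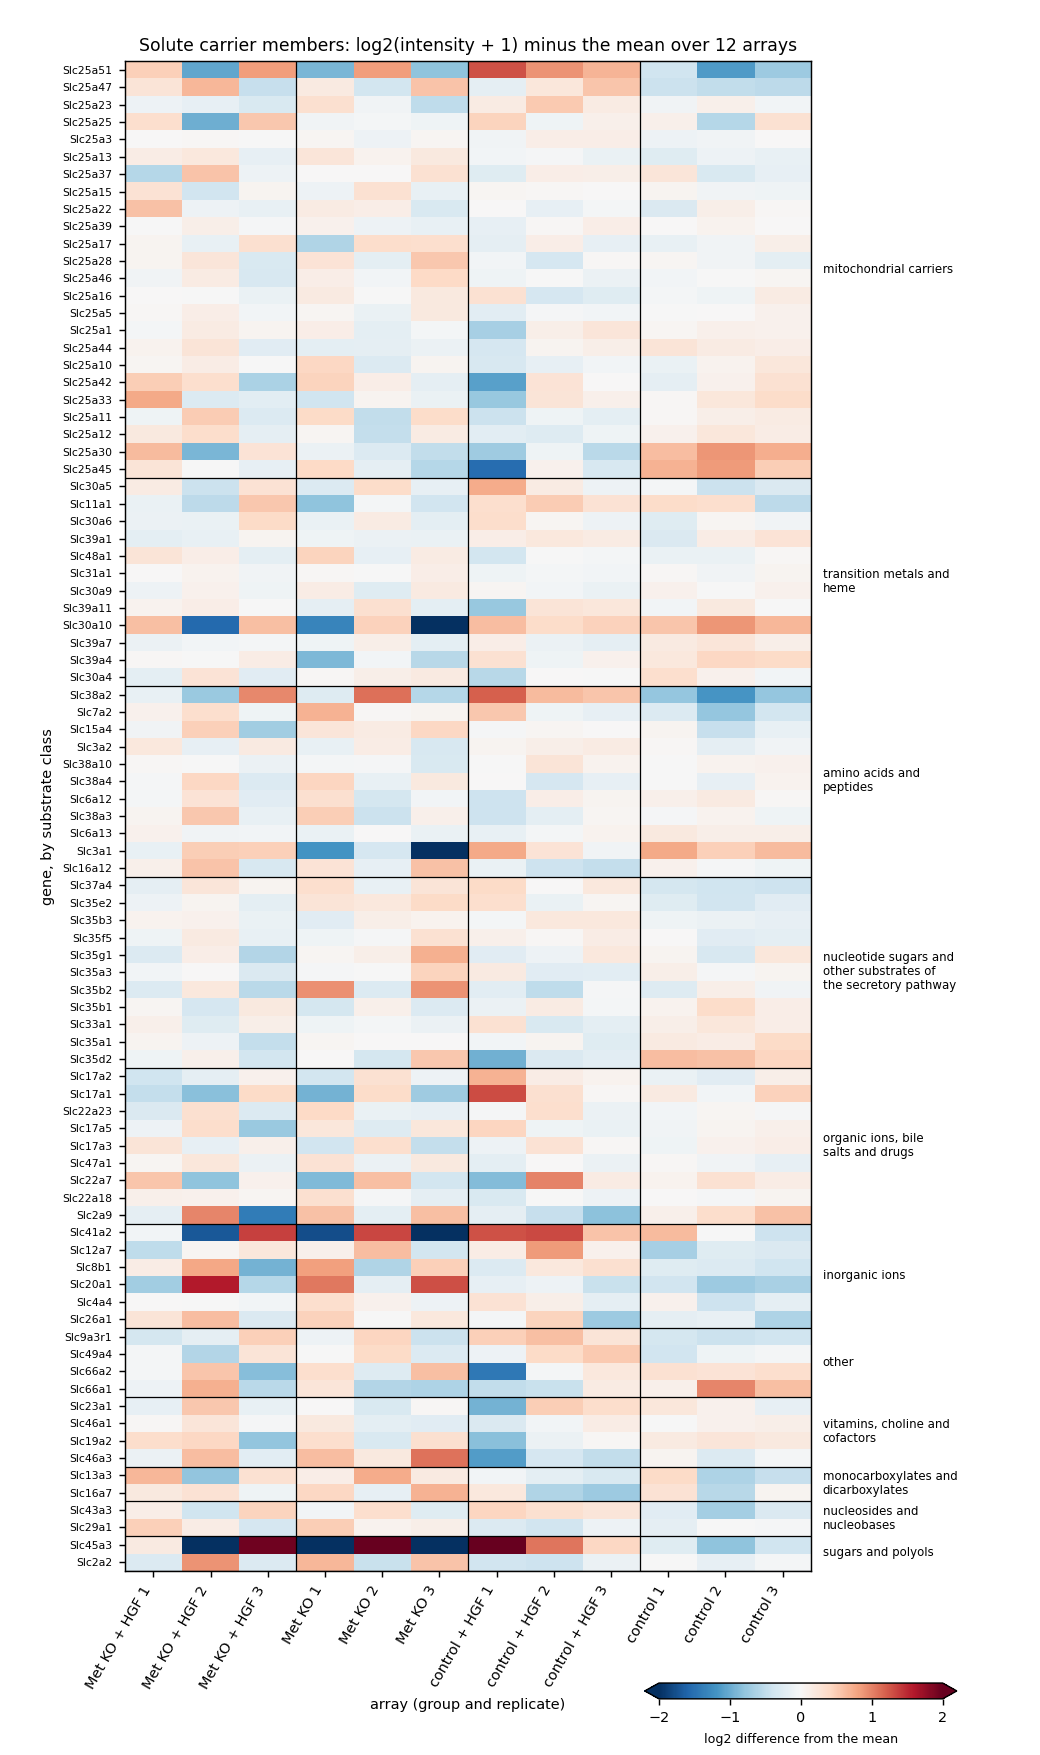
Log2(intensity + 1) of the 87 solute carrier genes on the 12 arrays, each as the difference from its mean over the arrays, with genes grouped by substrate class and, within a class, ordered by the HGF difference in control livers. Columns run from the knockout livers with HGF to the control livers. In Slc45a3, Slc41a2, Slc30a10 and Slc20a1 knockout replicate 2 without HGF lies on the side of replicate 3 with HGF, and replicate 2 with HGF on the side of replicates 1 and 3 without.

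The first comparison asked which solute carrier genes differed 2 h after HGF in livers with intact Met. Among the genes whose groups did not overlap, those that differed by over 2-fold were Slc45a3, Slc38a2, a glutamine and alanine transporter, and Slc25a51, the mitochondrial NAD carrier, which were higher with HGF, and Slc25a45, Slc25a30 and Slc35d2, which were lower. Slc38a2 was 3.25-fold and Slc25a51 3.24-fold higher. The values of Slc45a3 and Slc25a30 are partly set by the level rule. No gene of the 87 passed the test over all 12 arrays, a limma adjusted p under 0.05, against 0.404% of all tested probe sets. At an unadjusted p under 0.05 there were 13, 9 higher and 4 lower with HGF (14.9%, against 19.6% of all tested). The smallest limma adjusted p was 0.0919, for Slc35d2. In 28 of the 87 the 3 arrays with HGF and the 3 without did not overlap, 14 higher and 14 lower. That is 32.2%, against 37.7% of all tested, with 14.1% of all tested higher and 23.7% lower. The median HGF difference was -0.06 over the 87 genes and -0.09 over all tested, and 42.5% of the 87 were positive, against 35.6% of all tested.

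The spread in that test was pooled over all 4 groups, knockout replicate 2 arrays included. Fitted on the 6 control arrays alone, limma called 8 of the 87 genes (9.2%, against 12% of all tested). Higher with HGF were Slc38a2, Slc25a51, Slc9a3r1, Slc43a3 and Slc37a4, and lower were Slc25a30, Slc35d2 and Slc2a9. Slc25a30 is in this count and those of the other fits, but its call is no support, since the level rule took it through control livers without HGF. Without both knockout replicate 2 arrays limma called 7 (8.05%, against 8.16%), which were those without Slc2a9. With limma's array weights 18 were called (20.7%, against 20.2%). The share of solute carrier genes called was near or below that of all tested probe sets in each of these fits.

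Slc38a2 (Entrez Gene 67760) encodes SNAT2, a sodium-coupled transporter of small neutral amino acids known to be induced by amino acid shortage. It read 10.60, 10.03 and 9.95 in control livers with HGF, against 8.62, 8.22 and 8.63 in control livers without. All 3 arrays with HGF lay above all 3 without. The log2 difference was 1.70 (SE 0.48, limma adjusted p = 0.113), and with the control arrays alone the limma adjusted p was 0.00372. In knockout livers it read 9.25, 8.65 and 10.37 with HGF and 9.15, 10.50 and 8.83 without. Replicate 3 with HGF and replicate 2 without stood in the range of the HGF-treated controls, so the knockout groups overlapped.

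Slc25a51 (Entrez Gene 230125) read 8.16, 7.78 and 7.57 in control livers with HGF, against 6.49, 5.76 and 6.16 without. The difference was 1.70 (SE 0.54, limma adjusted p = 0.133, and 0.00537 on the control arrays alone). In knockout livers it read 7.37, 5.85 and 7.71 with HGF and 5.97, 7.73 and 6.08 without. Here knockout replicates 1 and 3 were high with HGF and low without it, and replicate 2 was the reverse. Other mitochondrial carriers were lower with HGF. Slc25a30, a carrier of the uncoupling protein group, read 4.82, 5.45 and 5.00 in control livers with HGF, against 6.16, 6.42 and 6.25 without. Its difference was -1.19, a description only, since without the 3 control arrays without HGF the gene would not have met the level rule. Slc25a45 read 4.48, 6.08 and 5.67 with HGF, against 6.69, 6.84 and 6.48 without, a difference of -1.26 (SE 0.37, limma adjusted p = 0.120). The groups did not overlap for either gene, and the first HGF-treated control gave the lowest value of both.

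Among the 24 mitochondrial carriers, 8 differences were positive and 16 negative with a median of -0.05, and 3 were higher and 6 lower without overlap. These are 12.5% and 25% of the class, beside 14.1% and 23.7% of all tested probe sets, so the class is close to the background. The others that separated were Slc25a47 at 0.69 and the ATP-Mg and phosphate carrier Slc25a23 at 0.29. Lower were the aspartate and glutamate carrier Slc25a12 at -0.34, the oxoglutarate carrier Slc25a11 at -0.34, the branched-chain amino acid carrier Slc25a44 at -0.23, and Slc25a5 at -0.12. The limma adjusted p of these 6 genes lay between 0.252 and 0.561.

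Genes of the secretory pathway stood on both sides. Slc35d2, a carrier of nucleotide sugars into the Golgi, read 6.89, 7.56 and 7.64 in control livers with HGF, against 8.47, 8.44 and 8.28 without, a difference of -1.03 (SE 0.25, limma adjusted p = 0.0919, and 0.0231 on the control arrays alone). Slc37a4, which brings glucose 6-phosphate to glucose 6-phosphatase, read 10.09, 9.72 and 9.94 with HGF, against 9.36, 9.32 and 9.31 without. Its difference was 0.59 (SE 0.16, limma adjusted p = 0.103, and 0.0233 on the control arrays alone). Neither gene's groups overlapped, and the 3 control arrays without HGF were close together for both. The sulfate donor carrier Slc35b3 stood at 0.25, the CMP-sialic acid carrier Slc35a1 at -0.31, Slc35e2 at 0.36 and Slc35f5 at 0.23, all without overlap.

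Slc9a3r1 read 10.43, 10.54 and 10.21 in control livers with HGF, against 9.60, 9.52 and 9.54 without, a difference of 0.84 (SE 0.24, limma adjusted p = 0.118, and 0.00553 on the control arrays alone). Its product holds transporters and channels at the apical membrane. Slc43a3 read 7.79, 7.67 and 7.60 with HGF, against 7.14, 6.68 and 7.06 without, a difference of 0.73 (SE 0.22, limma adjusted p = 0.127, and 0.0222 on the control arrays alone). The urate transporter Slc2a9 read 5.90, 5.61 and 5.25 with HGF, against 6.17, 6.43 and 6.66 without, a difference of -0.83 (SE 0.49, limma adjusted p = 0.369, and 0.0426 on the control arrays alone). In these 3 genes too the control groups did not overlap.

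**Figure D2:**
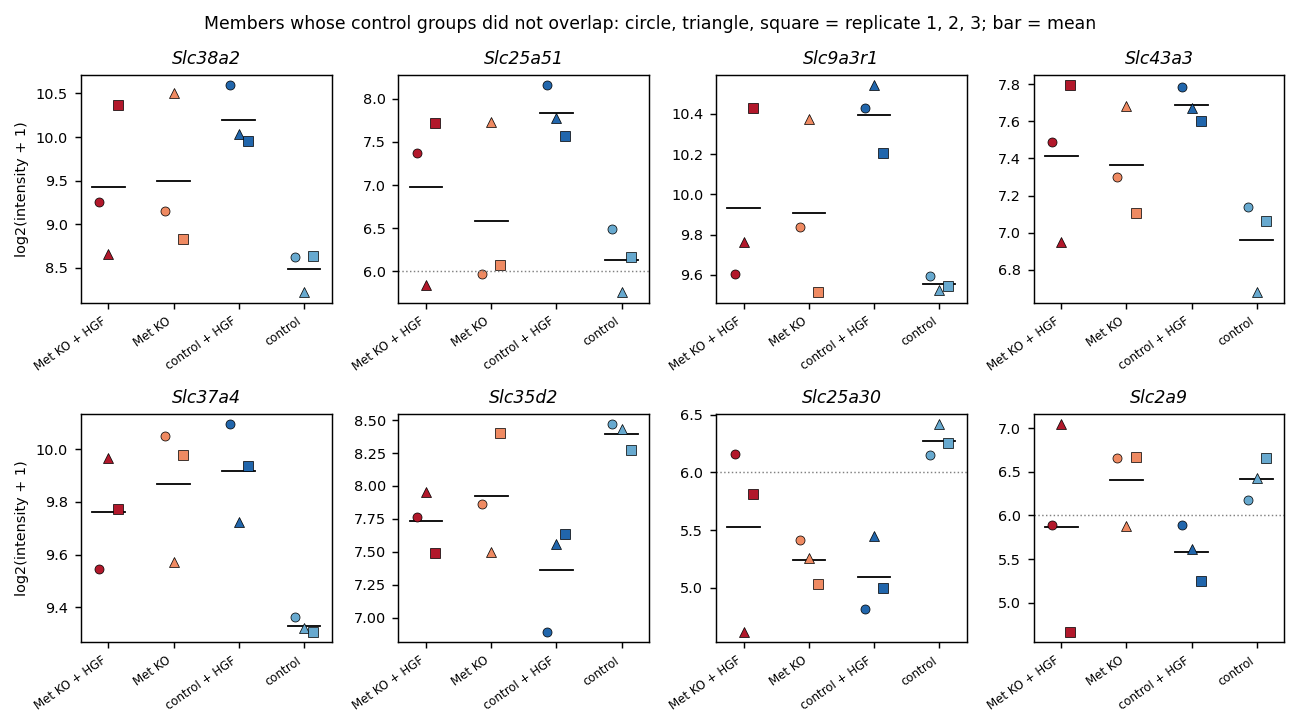
Log2(intensity + 1) per array for the 8 genes called on the control arrays alone; points are animals, marker shapes are replicates 1 to 3, bars are group means, and a dotted line, where it falls in range, marks the level of 6. The control groups with and without HGF separate in each panel, while among knockout livers the triangle, replicate 2, lies on the opposite side from the other replicates without HGF for Slc38a2 and Slc25a51.

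All 6 inorganic ion transporters had a positive HGF difference in control livers, with a median of 0.37 and a range of 0.21 for Slc26a1 to 0.98 for Slc41a2. Only 1 of them separated the groups, Slc12a7, at 0.76 (SE 0.30, limma adjusted p = 0.196). Slc41a2 read 9.26, 9.31 and 8.56 in control livers with HGF, against 8.63, 7.98 and 7.57 without, and the groups overlapped. All 4 genes for vitamins and cofactors had a negative difference with a median of -0.32, and Slc46a3 at -0.56 and Slc19a2 at -0.52 separated the groups. The 12 genes for metals and heme had a median of -0.08, and none of them separated the groups. The 11 amino acid and peptide transporters had a median of -0.12. Besides Slc38a2, the cationic amino acid transporter Slc7a2 at 0.57 and Slc3a2 at 0.19 were higher without overlap, and the creatine transporter Slc16a12 at -0.33 and Slc6a13 at -0.18 lower. With so few genes a class, these medians are descriptions of the classes as drawn up here.

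Slc2a2 differed by -0.24 (SE 0.34, limma adjusted p = 0.735). Slc45a3, named prostein and ascribed to sugar transport, had the largest positive difference of the 87, 1.94, again a description only. It read 8.34, 6.52 and 5.85 in control livers with HGF, against 5.20, 4.64 and 5.04 without, with no overlap but a wide spread among the HGF-treated animals. The lysosomal and vesicular genes Slc66a1 and Slc66a2 stood at -0.82 and -0.73, and of them only Slc66a2 separated the groups. The 87 genes are measured in whole liver, where fewer cells of a type and less RNA per cell cannot be told apart. Neutrophil markers differed beside them: their summed linear intensity was 31.0 to 1242 in knockout livers with HGF, 40.8 to 1253 in knockout livers, 771 to 2826 in control livers with HGF and 36.7 to 85.9 in control livers, from S100a8 and S100a9, while Mpo, Elane, Csf3r and Ngp were below the filter. Of 8 sinusoidal endothelial markers 6 separated the control groups, in opposite directions. Lyve1 was 2.61 higher with HGF on the log2 scale, and Stab2, Gpr182, Fcgr2b, Clec4g and Kdr were lower, with differences of -0.27, -0.91, -0.82, -0.46 and -1.11. The summed intensity of the list was 1186 to 1277 in control livers with HGF and 1598 to 1628 in control livers. Of 10 Kupffer cell and macrophage markers 1 had a positive HGF difference, Marco at 2.25, and the median was -0.21. Marco and Vsig4, at -0.68, separated the control groups, and the list summed to 2820 to 3768 in control livers with HGF and 3485 to 5284 in control livers. The part of these cell types in the solute carrier differences was not tested.

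**Figure D3:**
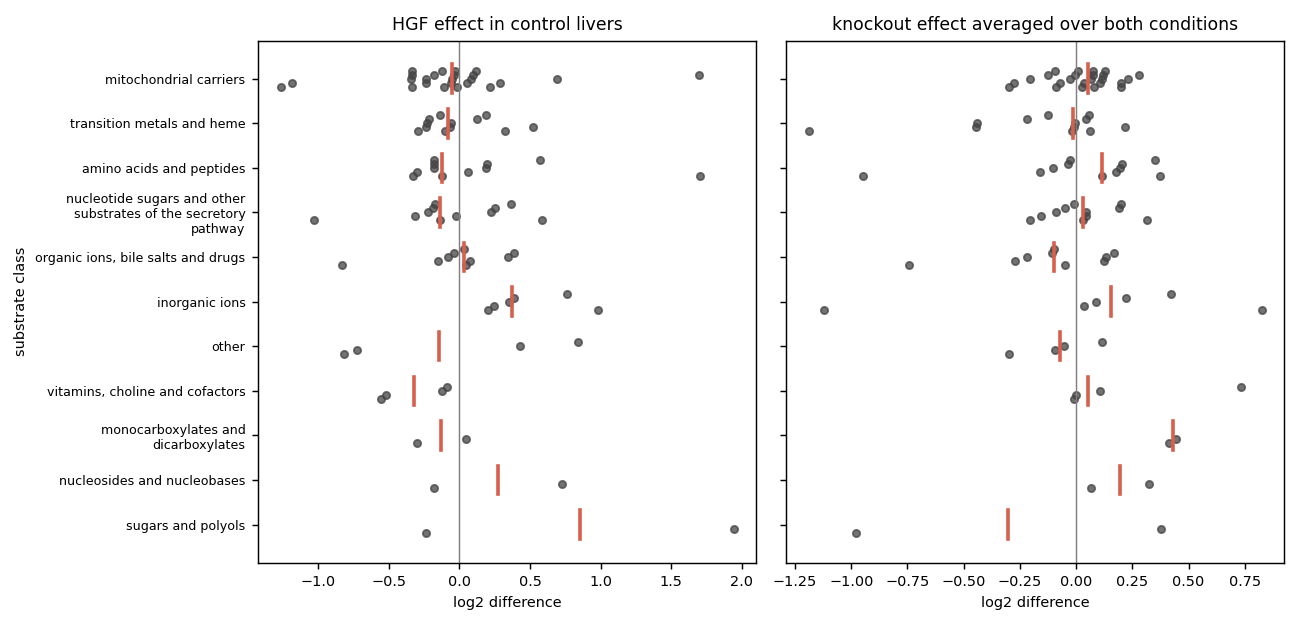
Log2 differences of the 87 genes by substrate class, one point per gene with the class median as a red bar; the left panel gives control livers with HGF minus control livers without, the right panel knockout minus control averaged over both HGF conditions. On the left all 6 inorganic ion genes lie right of 0 and all 4 vitamin and cofactor genes left of it; on the right most genes lie within 0.5 of 0, with Slc30a10, Slc41a2, Slc45a3, Slc3a1 and Slc17a1 to the left and Slc20a1 and Slc46a3 to the right.

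The next comparison asked whether HGF changed the same genes in livers without hepatocyte Met. Over all 12 arrays limma called none of the 87 genes, and 0.0% of all tested probe sets. An unadjusted p under 0.05 was found for 5 genes (5.75%, against 1.9% of all tested): Slc3a1 at 1.49, Slc39a4 at 0.56, Slc35e2 at -0.36, Slc35b2 at -0.71 and Slc35g1 at -0.53. In 3 of the 87 the knockout groups did not overlap (3.45%, against 3.8%), with Slc3a1 and Slc39a4 higher and Slc35e2 lower with HGF. The median difference was -0.03 over the 87 genes and -0.00 over all tested.

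Without both replicate 2 arrays, which leaves 2 animals a knockout group, limma called 9 genes (10.3%, against 4.16% of all tested). Those arrays were left out after they were seen to read against their label, which by itself favours calls. Higher with HGF were Slc45a3 at 3.58, Slc41a2 at 2.80, the manganese exporter Slc30a10 at 2.45, Slc3a1 at 1.83, Slc25a51 at 1.52 and Slc39a4 at 0.82. Lower were the phosphate transporter Slc20a1 at -1.80, the sulfate donor carrier Slc35b2 at -1.31 and Slc2a2 at -0.88. Their limma adjusted p lay between 0.00140 and 0.0420. Slc45a3 is in this count, but its call is no support. Among the knockout arrays kept only replicate 3 with HGF, at 7.39, reached the level of 6 that the rule asks for. Its values without HGF, 3.11 and 2.73, were below the test filter of 4. Of these 9, Slc25a51 also passed the fit on the control arrays alone. On the 6 knockout arrays alone and with array weights limma called 0 genes (0.0% of all tested in both).

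The interaction, or the HGF difference in the knockout minus the one in control livers, tests whether the responses differ by genotype. None of the 87 genes passed in limma over all 12 arrays, nor did any other probe set (0.0%), and 11 had an unadjusted p under 0.05 (12.6%, against 10.8% of all tested). The smallest adjusted p was 0.281, for Slc35e2. For Slc38a2 the interaction was -1.77 (SE 0.68, limma adjusted p = 0.413), and for Slc25a30 it was 1.48, with the limit of the level rule given above. Without both replicate 2 arrays, a choice that favours calls, 3 genes passed in limma (3.45%, against 0.359%). They were Slc20a1 at -2.15 (limma adjusted p = 0.00856), Slc30a10 at 2.67 (limma adjusted p = 0.0296) and Slc25a30 at 1.95. By the limit of the level rule the call of Slc25a30 is no support. With array weights 6 passed (6.9%, against 4.01%).

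The knockout was compared with control within each HGF condition and averaged over both. These differences share their arrays with the HGF differences above. Without HGF limma called none of the 87 genes (0.0599% of all tested), and 13 had an unadjusted p under 0.05 (14.9%, against 10.8%). In 21 genes knockout and control livers did not overlap, 11 higher and 10 lower in knockout livers (24.1%, against 18.7% of all tested, 6.61% higher and 12.1% lower). With HGF limma called none either (0.015% of all tested), 2 had an unadjusted p under 0.05 (2.3%, against 9.58%), and 5 did not overlap (5.75%, against 14.9%). Averaged over both conditions none was called (0.015% of all tested), 7 had an unadjusted p under 0.05 (8.05%, against 9.38%), and none separated all 6 knockout from all 6 control arrays (0.748% of all tested).

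Without both replicate 2 arrays limma called 9 genes for the knockout without HGF (10.3%, against 2.69% of all tested). Here too the choice of arrays favours calls. Higher in knockout livers were Slc20a1 at 1.76, Slc35b2 at 0.98, Slc2a2 at 0.68 and Slc37a4 at 0.68. Lower were Slc30a10 at -2.54, Slc3a1 at -2.29, Slc41a2 at -2.22, Slc39a4 at -1.07 and Slc25a30 at -1.05, the last of them a gene that met the level rule through these controls. Their limma adjusted p lay between 0.00151 and 0.0481. With HGF 0 were called (0.0299% of all tested), and averaged over both conditions 2 (2.3%, against 0.853%), Slc30a10 at -1.21 and Slc20a1 at 0.68. With array weights limma called 18 for the knockout without HGF (20.7%, against 9.53%), 0 with HGF (4.34% of all tested) and 11 averaged (12.6%, against 8.53%). On the compared groups alone 0 were called without HGF and with it (0.0748% and 0.015% of all tested).

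Slc3a1 (Entrez Gene 20532), the rBAT heavy chain of the cystine transporter, had the smallest p without HGF. It read 6.22, 6.86 and 6.84 in knockout livers with HGF and 5.17, 6.03 and 4.24 in knockout livers, against 7.14, 6.65 and 6.30 in control livers with HGF and 6.85 to 7.14 in control livers. All 3 knockout livers without HGF lay below every control array. This rests on the labels in doubt. Were the replicate 2 arrays exchanged, 6.86 would stand without HGF, above the lowest control without HGF at 6.85, and the groups would overlap. The difference without HGF was -1.85, or 3.59-fold lower (SE 0.39, limma adjusted p = 0.124), and with HGF it was -0.05 (SE 0.39, limma adjusted p = 0.974). The interaction of 1.79 had a limma adjusted p of 0.347. Without both replicate 2 arrays the difference without HGF was -2.29 (limma adjusted p = 0.0146).

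Slc39a4 (Entrez Gene 72027), the zinc importer ZIP4, showed the same order of groups. It read 8.36, 8.33 and 8.48 in knockout livers with HGF and 7.43, 8.28 and 7.78 in knockout livers, against 8.63, 8.25 and 8.41 in control livers with HGF and 8.54, 8.75 and 8.71 in control livers. The difference without HGF was -0.84 (SE 0.19, limma adjusted p = 0.142), and all 3 knockout livers were below the 3 controls. Without both replicate 2 arrays it was -1.07 (limma adjusted p = 0.0147). With knockout replicate 2 without HGF alone left out, Slc39a4 and Slc3a1 were the 2 genes called, at a limma adjusted p of 0.0343.

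Slc46a3 (Entrez Gene 71706), a lysosomal carrier linked to copper and to antibody-drug conjugates, had the smallest p averaged over both conditions. It read 7.54, 8.26 and 7.44 in knockout livers with HGF and 8.27, 7.85 and 8.73 in knockout livers, against 6.53, 7.32 and 7.16 in control livers with HGF and 7.70, 7.38 and 7.60 in control livers. Within each HGF condition all knockout arrays lay above all control arrays. The averaged difference was 0.73, or 1.66-fold higher (SE 0.20, limma adjusted p = 0.274), with 0.74 with HGF and 0.72 without. It was not among the genes called without both replicate 2 arrays.

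The other genes of small p averaged over both conditions were the aspartate and glutamate carrier Slc25a13 (citrin) at 0.23, Slc29a1 at 0.32, the zinc importer Slc39a1 at -0.22, the organic anion transporter Slc17a1 at -0.74 and Slc30a10 at -1.19. Without HGF, Slc7a2 stood at 0.73, Slc37a4 at 0.54, Slc35e2 at 0.56 and Slc25a30, under the same limit, at -1.04, each without overlap. With HGF, Slc25a23 stood at -0.47, and its knockout and control livers did not overlap. Of 7 stellate cell markers 5 were tested and 3 separated knockout from control livers without HGF, and the list's summed linear intensity was 1783 to 2035 in knockout livers with HGF and 2120 to 2571 in knockout livers, against 1634 to 1822 in control livers with HGF and 1552 to 1838 in control livers. Des and Col1a1 of that list were below the filter. All 10 Kupffer cell and macrophage markers had a negative knockout difference without HGF, with a median of -0.48, and Adgre1 at -0.48 and Csf1r at -0.59 separated the groups. That list summed to 2969 to 4250 in knockout livers with HGF and 2654 to 4057 in knockout livers, beside the control values above. Slc11a1, a metal transporter of macrophage endosomes and lysosomes, stood at -0.47 without HGF (SE 0.31, limma adjusted p = 0.658), with overlap. With HGF 7 of the 8 sinusoidal endothelial markers had a positive knockout difference, with a median of 0.43, and 5 of the 8 separated the groups, of which Lyve1 was lower in knockout livers, at -2.29. The part of these 3 lists in the solute carrier differences was not tested. In the knockout comparisons limma over all 12 arrays gave no gene named in this paragraph an adjusted p under 0.05. The glucose transporter Slc2a2 read 10.55, 11.72 and 10.55 in knockout livers with HGF and 11.48, 10.37 and 11.39 in knockout livers, against 10.44, 10.41 and 10.71 in control livers with HGF and 10.81, 10.66 and 10.79 in control livers. Replicate 2 with HGF and replicates 1 and 3 without stood above every control array, and the groups overlapped.

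Among the genes with the narrowest intervals, the copper importer Slc31a1 had an averaged knockout difference of 0.06, with a 95% interval of -0.08 to 0.19, and an HGF difference in control livers of -0.06, with an interval of -0.26 to 0.13. The median distance from a difference to the end of its interval was 0.49 between 2 groups of 3 arrays. These intervals are for 1 gene without adjustment, and a call needed a larger difference. Slc35d2, at -1.03 for HGF in control livers, had a limma adjusted p of 0.0919 and was not called.

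By class, the averaged knockout difference had a median of 0.05 over the 24 mitochondrial carriers, with a range of -0.30 for Slc25a30 to 0.28 for Slc25a47, 15 positive and 9 negative. The 12 genes for metals and heme had a median of -0.01, with Slc30a10 lowest and the heme transporter Slc48a1 highest at 0.22. Amino acid and peptide transporters had a median of 0.12, from Slc3a1 to Slc7a2 at 0.37. The secretory pathway had a median of 0.03, from Slc35b1 at -0.20 to Slc35b2 at 0.31. Organic ion transporters had a median of -0.10, from Slc17a1 to Slc47a1 at 0.17, and inorganic ion transporters one of 0.16, from Slc41a2 at -1.12 to Slc20a1 at 0.83. Over all 87 genes the median was 0.03 and over all tested probe sets 0.00. None of these classes held a gene that passed in limma over all 12 arrays.

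**Figure D4:**
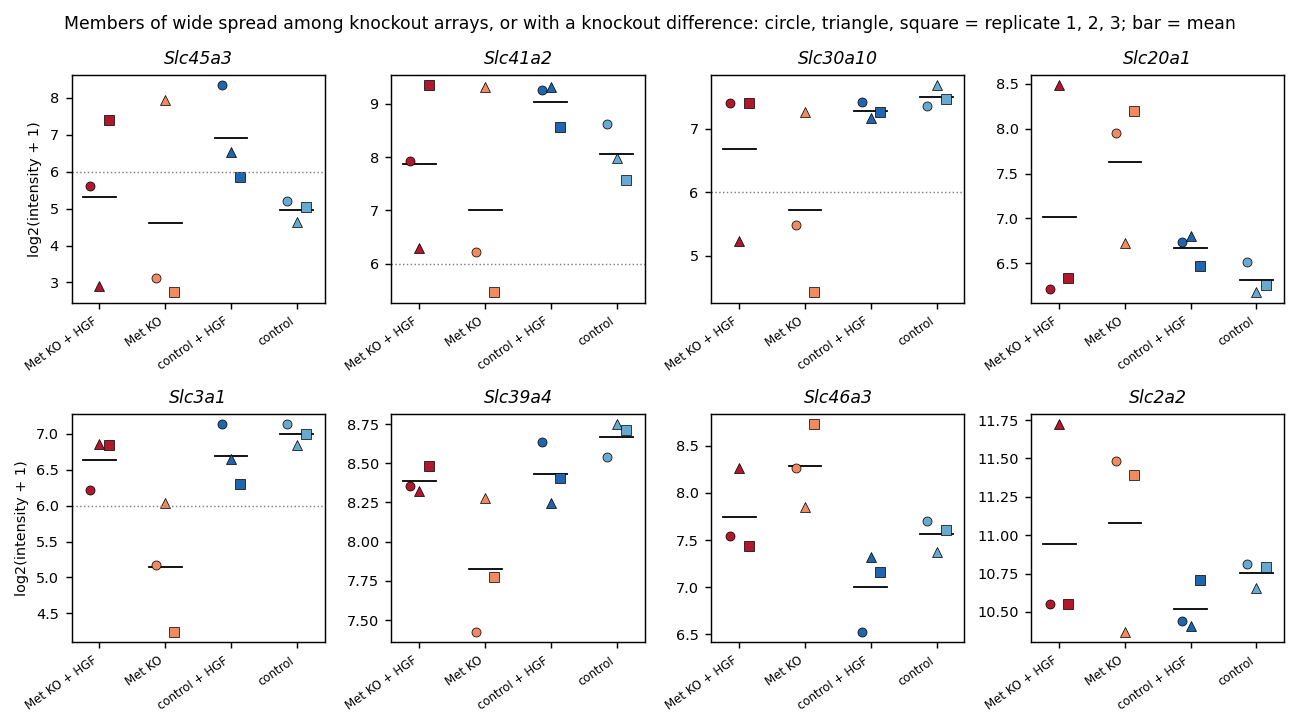
Log2(intensity + 1) per array for 8 genes with a wide spread among knockout arrays or a small p for the knockout; points are animals, marker shapes are replicates 1 to 3, bars are group means, and a dotted line, where it falls in range, marks the level of 6. In the top row knockout replicate 2, the triangle, lies apart from replicates 1 and 3 without HGF and apart from them on the other side with HGF. In Slc3a1 all 3 knockout livers labelled without HGF lie below the control arrays, which rests on the replicate 2 labels in doubt.

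Arrays labelled as 1 knockout group differed more than those of 1 control group. The gap was smaller without the replicate 2 arrays whose labels may be exchanged. The SD within groups was larger in knockout livers for 67 of 87 genes (77.0%, against 71.2% of all tested), with a median of 0.333 in knockout and 0.186 in control livers. Over all tested probe sets these medians were 0.239 and 0.173. An SD of at least 1 was found for 4 genes in knockout livers and 0 in control livers (4.47% and 0.464% of all tested). The 4 were Slc45a3, Slc41a2, Slc30a10 and Slc20a1, with 2.60, 1.81, 1.35 and 1.06 in knockout livers beside 0.94, 0.48, 0.15 and 0.18 in control livers. Without both knockout replicate 2 arrays the SD was larger in knockout livers for 49 of 87 genes (56.3%, against 57.6% of all tested), with a median of 0.214 in knockout livers. No gene then had an SD of at least 1 in knockout livers, and the 4 had 0.91, 0.81, 0.53 and 0.13. Those arrays were left out after they were seen to lie apart, which by itself favours a smaller SD in knockout livers. The SD then rests on 2 arrays a knockout group, so where the spread came from was not tested. Without the replicate 2 arrays of all 4 groups the SD was larger in knockout livers for 45 of 87 genes (51.7%, against 58.3% of all tested). The medians were then 0.214 in knockout and 0.203 in control livers, and 1 gene had an SD of at least 1 in control livers.

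Slc30a10 (Entrez Gene 226781), which exports manganese, read 7.41, 5.24 and 7.41 in knockout livers with HGF and 5.49, 7.26 and 4.43 in knockout livers, against 7.42, 7.17 and 7.27 in control livers with HGF and 7.35, 7.69 and 7.47 in control livers. The low knockout arrays were replicates 1 and 3 without HGF and replicate 2 with HGF, all below every control array. The 6 control arrays did not separate by HGF.

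Slc20a1 (Entrez Gene 20515), the phosphate transporter PiT-1, was high on the arrays where Slc30a10 was low. It read 6.22, 8.49 and 6.34 in knockout livers with HGF and 7.96, 6.73 and 8.20 in knockout livers, against 6.74, 6.81 and 6.47 in control livers with HGF and 6.52, 6.18 and 6.26 in control livers. The same 3 knockout arrays stood above every other array.

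Slc41a2 (Entrez Gene 338365) read 7.93, 6.30 and 9.35 in knockout livers with HGF and 6.22, 9.32 and 5.46 in knockout livers, against 9.26, 9.31 and 8.56 in control livers with HGF and 8.63, 7.98 and 7.57 in control livers. Slc45a3 (Entrez Gene 212980) read 5.62, 2.91 and 7.39 in knockout livers with HGF and 3.11, 7.94 and 2.73 in knockout livers. For both genes the same 3 knockout arrays were below all 6 control arrays. Replicate 2 without HGF and replicate 3 with HGF were instead as high as HGF-treated controls.

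The knockout arrays were also placed by how many of the 87 genes lay outside the span of the 6 control arrays. In knockout livers with HGF there were 20, 46 and 20 such genes, and in knockout livers without HGF 44, 24 and 47. In percent these are 23.0, 52.9 and 23.0 with HGF, beside 22.3, 41.7 and 30.5 over all tested, and 50.6, 27.6 and 54.0 without HGF, beside 41.0, 26.0 and 50.9 over all tested. Of the 28 genes whose control groups did not overlap, 10, 11 and 21 were nearer the mean of HGF-treated controls in knockout livers with HGF, and 11, 22 and 11 in knockout livers without. Over all 2522 such probe sets the shares were 30.0%, 23.4% and 72.7% with HGF and 26.9%, 79.5% and 25.6% without.

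**Figure D5:**
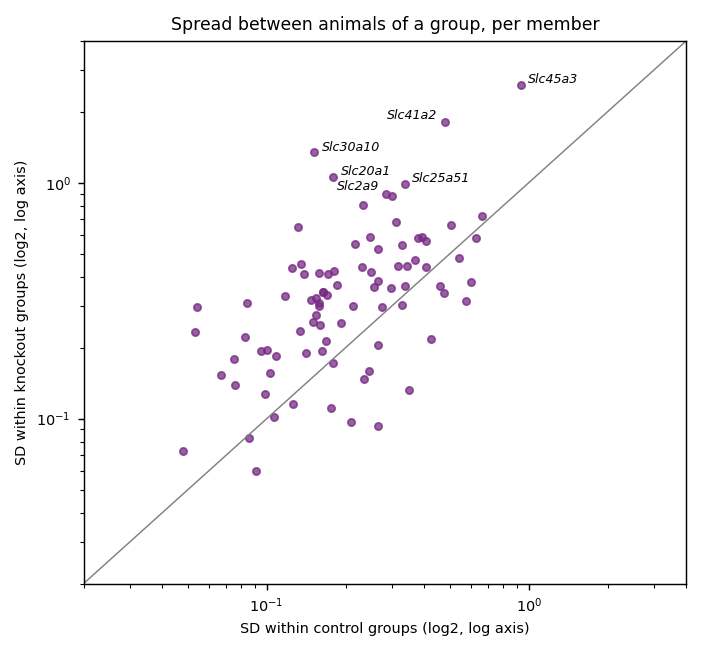
SD within knockout groups against SD within control groups for each of the 87 genes, both on log axes, with a diagonal where they are equal. Most points, 67 of 87, lie above the diagonal with all arrays in, against 49 without both knockout replicate 2 arrays, and the 4 genes above 1 on the vertical axis are Slc45a3, Slc41a2, Slc30a10 and Slc20a1.

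Promoter sequence is shown for Slc20a1 and Slc45a3, which varied in opposite directions over the knockout arrays, for Slc3a1, of smallest p without HGF, and for Slc38a2, of smallest p on the control arrays alone. RefSeq promoters of the GRCm38.p6 assembly were found for 70 of the 87 genes, 102 promoters in all, and the 250 bases before the start were searched on both strands for 4 motifs. The motifs were AP-1 (TGANTCA), CRE (TGACGTCA), the E-box (CACGTG) and the D-box (TTANGTAA). In the promoters searched, the AP-1 and E-box matches of Slc25a13 overlap. They were in 8, 1, 13 and 4 of the 102 promoters, or 7.84%, 0.980%, 12.7% and 3.92%, against 6.75%, 1.55%, 6.02% and 2.06% of all 32851 promoters in the table. Capitals mark matches. Slc20a1 (chr2:129198523-129198772, plus strand) holds 2 E-boxes, starting 175 and 22 bases before the gene start. Slc45a3 (chr1:131962665-131962914, plus strand) holds 1 D-box at 219 bases, and Slc3a1 (chr17:85028097-85028346, plus strand) 1 AP-1 motif at 140 bases. Slc38a2 (chr15:96699729-96699978, minus strand) holds none of the 4, and neither do the promoters found for Slc30a10, Slc41a2, Slc37a4, Slc9a3r1 and Slc25a30. A match is a run of letters and no measure of binding.
Slc20a1: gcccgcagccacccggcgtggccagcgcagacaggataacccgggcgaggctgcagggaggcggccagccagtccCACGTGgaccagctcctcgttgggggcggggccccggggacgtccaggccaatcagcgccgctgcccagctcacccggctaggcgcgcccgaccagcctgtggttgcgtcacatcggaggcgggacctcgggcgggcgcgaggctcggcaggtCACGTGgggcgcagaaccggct
Slc45a3: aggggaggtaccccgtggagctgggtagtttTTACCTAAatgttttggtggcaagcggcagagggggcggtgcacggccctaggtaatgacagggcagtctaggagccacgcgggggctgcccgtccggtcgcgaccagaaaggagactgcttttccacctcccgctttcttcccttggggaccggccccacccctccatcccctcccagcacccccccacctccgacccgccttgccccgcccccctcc
Slc3a1: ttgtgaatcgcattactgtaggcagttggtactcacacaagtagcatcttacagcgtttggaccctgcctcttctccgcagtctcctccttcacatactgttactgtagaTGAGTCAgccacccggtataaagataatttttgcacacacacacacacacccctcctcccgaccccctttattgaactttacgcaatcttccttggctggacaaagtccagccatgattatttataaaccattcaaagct
Slc38a2: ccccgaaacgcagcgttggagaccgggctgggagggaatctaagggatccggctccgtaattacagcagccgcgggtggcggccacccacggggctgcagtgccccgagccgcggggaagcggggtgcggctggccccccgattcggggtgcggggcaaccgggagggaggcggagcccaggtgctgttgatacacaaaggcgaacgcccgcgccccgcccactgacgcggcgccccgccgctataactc

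Related genes that carry other names were read beside the 87. Of 24 transporters named outside the Slc series 18 were on the array and 12 were tested, and none was called in any of the 6 comparisons by limma over all 12 arrays. Their median HGF difference in control livers was -0.13, and 6 of the 12 separated the control groups, as did 37.7% of all tested probe sets. The organic anion uptake genes Slco1b2 and Slco1a1 differed by -0.11 and -0.31, with overlap, and Slco1a4 by -1.33 (SE 0.56, limma adjusted p = 0.226) without it. Slco1a4 read 7.59, 6.60 and 7.08 in control livers with HGF, against 9.29, 7.79 and 8.18 without. Mfsd2a, the lysophosphatidylcholine transporter, had an averaged knockout difference of 3.09 (SE 0.76, limma adjusted p = 0.213). Mfsd2a read 7.76, 7.32 and 6.57 in knockout livers with HGF and 8.55, 6.60 and 8.47 in knockout livers, against 7.33, 2.83 and 3.94 in control livers with HGF and 4.34, 2.85 and 5.46 in control livers. The first HGF-treated control was as high as the knockouts, so the genotypes overlapped. Of 16 partners and scaffolds 12 were on the array, 7 were tested and none was called, with a median HGF difference of -0.11 in control livers. Of these 7 only Nedd4l, at 1.48, separated the control groups.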

How the data were processed

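Total RNA from 12 mouse livers was hybridised to 1-colour Affymetrix arrays, 3 arrays a group, with groups and replicate numbers from the sample titles. The deposited values are probe set intensities, read as linear from their range and made with GCRMA, as the submitters' processing notes record without a version. This method corrects background and gives the arrays a common distribution, so a shift shared by most genes is not visible and differences near background are uncertain. The deposited intensity values were put on a log2 scale with a pseudocount of 1, which understates the change of dim genes. Probe sets at 4 or more on at least 3 arrays were tested. A mean per group was fitted with limma 3.58.1 in R 4.3.3 (8 residual degrees of freedom), with two-sided tests and Benjamini-Hochberg adjustment over all 6683 tested probe sets within each of 6 comparisons. A gene was called at an adjusted p under 0.05. The model was tested on simulated data. The p-values measure the spread between animals labelled as 1 group. Over all 12 arrays that spread is pooled over the 4 groups and holds any error in the labels of the knockout replicate 2 arrays. With 3 arrays a group the precision is limited.

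The genes and lists were chosen with earlier results of these data known. Substrate classes follow family names, save for single genes classed by their own symbol. Among these, Slc2a9 is in another class than Slc2a2, and Slc16a12 in another than Slc16a7. Slc49a4, Slc66a1, Slc66a2 and the scaffold gene Slc9a3r1 were put in none after the files were seen. All 87 Entrez Gene IDs were found in RefSeq and 0 symbols differed. The rule for named genes took every called gene. In the HGF difference in control livers it took the 12 largest positive and 12 largest negative differences among genes whose groups did not overlap, and in every other comparison the 8 smallest p. It added the 3 highest mean levels of each class, the genes beside the level threshold, the 8 widest ranges, partner proteins and the 3 most abundant related genes. Not every gene it took is described above, Slc33a1 and Bsg among those left out. Other genes, among them Slco1a4, Mfsd2a and Nedd4l, were named after their values were seen. Alternatives were the compared groups alone, other filters, pseudocount and centring, array weights, the replicate number as a block and each array left out. Leaving out both knockout replicate 2 arrays, or all replicate 2 arrays for the spread, was added after seeing the data. In the tests the first of these favours calls. Same-numbered arrays of the 2 control groups correlated at 0.10, 0.18 and 0.05 in their deviations from the group means, and those of the knockout groups at 0.12, -0.83 and -0.70, so the numbers were not taken as pairs.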

Additional observations from a re-analysis of the deposited data

Results flagged for a closer look

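Slc35e2, an orphan member of the nucleotide sugar carrier family, was the 1 gene whose HGF difference ran in opposite directions in the 2 genotypes with no overlap in either. In knockout livers it read 8.18, 8.34 and 8.08 with HGF, against 8.53, 8.49 and 8.65 without, a difference of -0.36. In control livers it read 8.62, 8.15 and 8.31 with HGF, against 8.03, 7.90 and 8.05 without, a difference of 0.36. The test of the difference between the genotypes gave an interaction of -0.72 (SE 0.18), with an unadjusted p of 0.0027 and a limma adjusted p of 0.281 over 6683 probe sets, and so did not pass. It was chosen from 87 genes, and as labelled both replicate 2 arrays of the knockout groups lay on the same side as the other replicates. This rests on the labels in doubt. Were those 2 arrays exchanged, 8.49 would stand with HGF and 8.34 without, and the knockout groups would overlap.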

How the results depend on the processing

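Over all 12 arrays 0 of the 87 genes were called in each of the 6 comparisons. For the HGF difference in control livers the count was 8 on the compared groups alone, 18 with array weights and 7 without both knockout replicate 2 arrays. For the HGF difference in knockout livers it was 9 without both replicate 2 arrays, with a median over the genes of -0.12. For the knockout without HGF it was 18 with array weights and 9 without both replicate 2 arrays, and averaged over both conditions 11 and 2. For the interaction it was 6 with array weights, with a median of -0.043, and 3 without both replicate 2 arrays, with a median of -0.0905. Limma stopped the array weights before they had converged. Leaving out 1 array at a time gave 0 to 4 calls for HGF in control livers (medians -0.0789 to 0.0086) and 0 to 2 for the knockout without HGF (0.01 to 0.08). With replicate 2 of the knockout livers without HGF left out, Slc35d2, Slc37a4, Slc38a2 and Slc9a3r1 were called for HGF in control livers, and with replicate 2 of the knockout livers with HGF left out, Slc25a30. The other 4 comparisons kept 0 calls, with medians of -0.07 to 0.03 for HGF in knockout livers, -0.0294 to 0.0881 for the knockout with HGF, -0.00 to 0.05 for its average and -0.03 to 0.06 for the interaction. The count of genes with a larger SD in knockout livers was 67 over all arrays, 49 without both knockout replicate 2 arrays and 45 without the replicate 2 arrays of all 4 groups. With the replicate number as a block 0 genes were called in every comparison. Of the results for single named genes under the alternatives, 1197 kept their side of the threshold, 67 newly passed it and 0 changed sign. These results were picked for groups without overlap or for the smallest p over all 12 arrays, a choice that favours keeping the sign. They do not cover every difference given for the genes named. The number of arrays and the doubt about the labels of both knockout replicate 2 arrays limit these tests, and genes near background are the least certain.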
